A study of Mus musculus with 6 samples.

Results

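Enteroendocrine cells are the hormone-secreting cells of the intestinal epithelium. They pack peptide hormones or serotonin into dense-core granules, whose core proteins include the chromogranins, and release them in response to nutrients. Each hormone marks a partly overlapping subset of these cells, and several of the hormones have a preferred position along the intestine: Gip and Cck are made mostly in the upper small intestine, and Gcg and Nts mostly in the lower small intestine. The 10 genes described here are the granule genes Chga, Chgb and Syp, the peptide hormone genes Gip, Cck, Sct, Gcg, Sst and Tac1, and Tph1, which encodes the enzyme that starts serotonin synthesis outside the brain. They were chosen by symbol as known enteroendocrine genes, and they are 10 of the 34866 genes of the table.

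RNA was sequenced from excised intestinal adenomas of Apc1322T/+ and ApcMin/+ mice, all of strain C57BL/6J and 100 to 120 days old, with 3 libraries per genotype. Both genotypes carry a germline truncation of the tumour suppressor Apc, so no group has intact Apc and there were no normal tissue samples. The ApcMin truncation leaves almost no Apc function, whereas the longer Apc1322T protein keeps some β-catenin binding sites, and adenomas form after loss of the remaining allele. A library typically pooled several RNA extractions from 1 mouse, the labels do not name the mouse, and p-values measure the spread between these libraries. The question asked of the 10 genes was whether their RNA levels differ between adenomas with these Apc alleles, and how they vary from library to library.

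The libraries held 23132461 to 33518324 estimated counts, at which 3 counts correspond to 0.0895 to 0.130 CPM, the usual count scaled to a common library size. Of the 9 markers set for enteroendocrine cells, 3 (Chga, Chgb and Syp) are among the 10 genes and say nothing further about the label. The others also passed the filter on low counts, among them the transcription factors Neurod1 at 0.220 to 0.944 CPM and Insm1 at 0.550 to 1.74 CPM. ApcMin replicate 1 stood apart in 1 respect, with 6180 counts summed over 7 pancreatic acinar genes such as Cpa1 and Cpb1, against 10 to 30 in each other library. The islet genes Ins1, Ins2 and Ppy were at 0 counts in all 6 libraries, which allows up to 3 counts per library. The epithelial markers were lower in ApcMin for 5 of 5 genes (for example Epcam, log2 fold change -0.39), with a summed level of 10701 to 13779 CPM in Apc1322T and 8435 to 10354 CPM in ApcMin. In bulk RNA, fewer cells of a type and less RNA per cell cannot be told apart.

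The sequence before the transcription start is shown for 4 of the genes, because Chga, Gip and Cck had the most similar profiles over the 6 libraries and Gcg the least similar one. The stretches are the 150 bases before the RefSeq start on GRCm38.p6, written 5′ to 3′ on the strand of the gene. Capitals mark matches on either strand to the short cAMP response element TGACG (reverse complement CGTCA) and to the E-boxes CAGCTG and CAGATG (reverse complement CATCTG), the kinds of letters bound by CREB factors and by basic helix-loop-helix factors such as Neurog3 and Neurod1.
Chga (chr12:102554791-102554940, plus strand): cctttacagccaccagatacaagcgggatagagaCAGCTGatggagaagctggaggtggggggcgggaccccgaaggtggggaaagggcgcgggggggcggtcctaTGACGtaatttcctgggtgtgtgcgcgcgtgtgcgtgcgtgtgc
Gip (chr11:96024395-96024544, plus strand): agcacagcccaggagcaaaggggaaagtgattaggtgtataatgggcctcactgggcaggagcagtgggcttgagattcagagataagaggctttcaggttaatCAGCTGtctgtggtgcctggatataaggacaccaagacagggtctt
Cck (chr9:121495695-121495844, minus strand): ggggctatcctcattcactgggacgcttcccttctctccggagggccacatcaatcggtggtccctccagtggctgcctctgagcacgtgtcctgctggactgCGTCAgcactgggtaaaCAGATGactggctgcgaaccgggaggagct
Gcg (chr2:62483654-62483803, minus strand): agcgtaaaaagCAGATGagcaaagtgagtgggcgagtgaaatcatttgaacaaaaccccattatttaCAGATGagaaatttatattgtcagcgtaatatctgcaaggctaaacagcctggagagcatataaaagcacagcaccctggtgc

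Shorter stretches of 30 bases are shown for 3 further genes, Chgb and Sst because they hold the full cAMP response element TGACGTCA and Tac1 because it is the gene whose libraries were separate between genotypes. They lie before the RefSeq start but within each gene as annotated in GENCODE M21, which places its start farther upstream. Capitals again mark the motif.
Chgb (chr2:132781559-132781588, plus strand): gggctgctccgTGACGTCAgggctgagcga
Sst (chr16:23890874-23890903, minus strand): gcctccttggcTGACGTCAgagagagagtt
Tac1 (chr6:7555005-7555034, plus strand): ggctctacaggctCGTCAcgcctgagataa

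All 10 genes had a RefSeq promoter of 300 bases (250 before and 50 after the start), and Tph1 had a pair of starts. The full TGACGTCA was present in 2 of the 10 genes and in 1.79% of 32851 promoters of the same length. The short element, which lies within the full one and so counts it too, was present in 6 of the 10 genes (Chga, Chgb, Cck, Sst, Tac1 and Tph1) and in 20.8% of all promoters. CAGCTG was found in 4 genes (Chga, Chgb, Sct and Gip) and in 16.3% of promoters, and CAGATG in 4 genes (Gcg, Cck, Sct and Tac1) and in 17.2%. Gip and Gcg held no short element in this window, and Syp held none of these motifs. The letters are a description of the windows, and binding was not measured.

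The genotypes were compared with the quasi-likelihood test of edgeR across the 16536 genes that passed the filter, all 10 enteroendocrine genes among them. None of the 10 passed an adjusted p of 0.01, and the same test called 0% of all genes. The DESeq2 Wald test called none of the 10 and 1.25% of all genes. The log2 fold changes (ApcMin minus Apc1322T) ran from -0.45 for Sct to 0.63 for Tac1, with 4 genes higher and 6 lower in ApcMin and a median of -0.058, beside a median of 0.017 over all genes tested. At an unadjusted p under 0.05 there was 1 gene, Tac1, higher in ApcMin, where 7.49% of all genes were higher and 7.6% were lower by that rule. Tac1 was also the only 1 of the 10 whose libraries did not overlap between genotypes, against 11% of all genes that were higher and 9.96% that were lower in ApcMin without overlap.

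**Figure D1:**
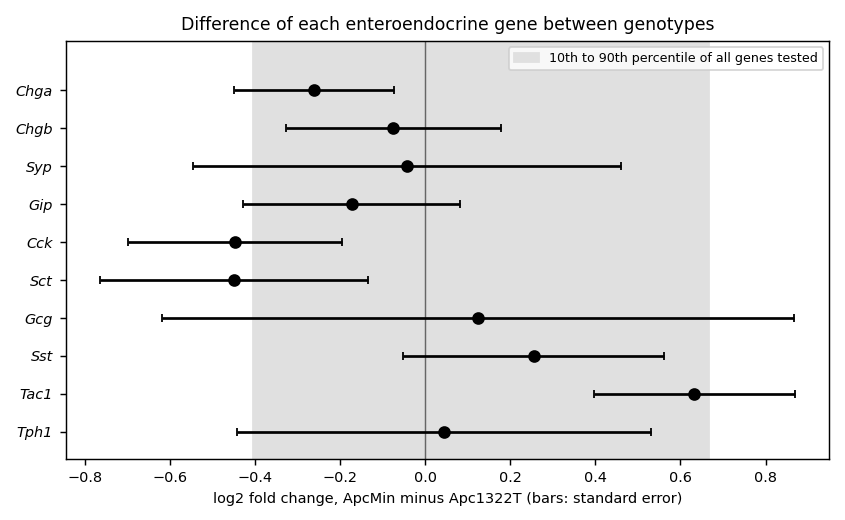
Log2 fold change (ApcMin minus Apc1322T) of each of the 10 genes on the horizontal axis, with its standard error as the bar (3 libraries per genotype), over a grey band from the 10th to the 90th percentile of all genes tested. Tac1 lies farthest to the right at 0.63 and Sct and Cck farthest to the left at -0.45, and the other 7 genes lie between -0.26 and 0.25.

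The granule genes differed little between genotypes. Chga encodes chromogranin A, a core protein of dense-core granules that is widely used to mark endocrine cells. Its level was 15.4, 22.6 and 23.9 CPM in Apc1322T replicates 1 to 3 and 15.2, 17.7 and 18.7 CPM in ApcMin replicates 1 to 3. The first library of each genotype was low, Apc1322T replicates 2 and 3 were above every ApcMin library, and the groups overlapped only through Apc1322T replicate 1. The log2 fold change was -0.26 ± 0.19 (SE, n = 3 per genotype, edgeR adjusted p = 0.513).

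Chgb, which encodes the related granule protein chromogranin B, had 24.1, 47.3 and 39.9 CPM in Apc1322T and 30.3, 34.6 and 40.7 CPM in ApcMin. Apc1322T supplied both the lowest and the highest library, with all ApcMin libraries between them, and the log2 fold change was -0.075 ± 0.25 (SE, edgeR adjusted p = 0.903). Syp encodes synaptophysin, a membrane protein of small vesicles in endocrine cells and neurons. It was the least abundant of the 3 granule genes at 21, 48 and 53 counts in Apc1322T and 56, 63 and 37 counts in ApcMin. Its groups overlapped, with Apc1322T replicate 1 below and ApcMin replicate 2 above all others, and its log2 fold change of -0.042 ± 0.50 (SE, edgeR adjusted p = 0.973) changed sign under upper-quartile scaling (0.024).

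Among the hormones of the upper intestine, none was separate between genotypes. Gip encodes glucose-dependent insulinotropic polypeptide, the incretin of K cells. It had 12.0, 17.3 and 21.8 CPM in Apc1322T and 12.6, 13.9 and 18.9 CPM in ApcMin, groups that overlapped over most of their range (log2 fold change -0.17 ± 0.25, SE, edgeR adjusted p = 0.755). Cck encodes cholecystokinin, which stimulates gall bladder contraction and pancreatic enzyme secretion. Its values were 6.90, 12.4 and 12.3 CPM in Apc1322T and 7.65, 6.96 and 8.57 CPM in ApcMin. Apc1322T replicates 2 and 3 stood above the other 4 libraries, which included Apc1322T replicate 1 as the lowest, and the log2 fold change was -0.45 ± 0.25 (SE, edgeR adjusted p = 0.420).

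Sct encodes secretin, which stimulates pancreatic bicarbonate secretion and is made by many enteroendocrine cells as they mature. It had 178, 314 and 294 counts in Apc1322T and 268, 255 and 241 counts in ApcMin, and from 6.53 to 14.9 CPM over the 6 libraries. After scaling for library size, as for Cck, Apc1322T replicates 2 and 3 were the highest libraries and Apc1322T replicate 1 the lowest (log2 fold change -0.45 ± 0.32, SE, edgeR adjusted p = 0.504).

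Sst encodes somatostatin, the inhibitory peptide of D cells. It had 2.75, 5.85 and 4.90 CPM in Apc1322T and 4.50, 5.74 and 5.85 CPM in ApcMin. The ApcMin libraries lay close together and Apc1322T replicate 1 lay well below all others, with a log2 fold change of 0.25 ± 0.31 (SE, edgeR adjusted p = 0.699). Tph1 encodes tryptophan hydroxylase 1, the serotonin enzyme of enterochromaffin cells. Its values of 5.06, 13.8 and 8.71 CPM in Apc1322T and 6.12, 15.4 and 6.95 CPM in ApcMin were highest in the second library of each genotype. The groups overlapped over most of their range, and the log2 fold change was 0.045 ± 0.49 (SE, edgeR adjusted p = 0.971).

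Tac1 encodes the precursor of substance P and neurokinin A, which is made by enterochromaffin cells and by enteric neurons. It had 68, 63 and 77 counts in Apc1322T and 147, 104 and 175 counts in ApcMin, or 2.49, 2.99 and 3.37 CPM against 4.11, 4.09 and 5.53 CPM. Every ApcMin library was above every Apc1322T library. The log2 fold change was 0.63 ± 0.24 (SE, edgeR unadjusted p = 0.0327), and it did not pass after adjustment (edgeR adjusted p = 0.311, DESeq2 adjusted p = 0.221). Over the alternatives it ranged from 0.47 to 1.12, with an adjusted p of 0.102 to 0.692. Tacr1, which encodes the substance P receptor, was likewise higher in every ApcMin library, at 151, 79 and 111 counts in Apc1322T and 241, 187 and 397 counts in ApcMin (log2 fold change 0.91 ± 0.30, SE, edgeR adjusted p = 0.287).

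Markers of enteric neurons moved with Tac1 in part. Of 12 neuron markers, 7 passed the filter and 6 of these were higher in ApcMin, with a median log2 fold change of 1.09 and 3 without overlap. Their summed level, to which Ret alone gave up to 29.3 CPM, was 33.5 to 44.2 CPM in Apc1322T and 38.0 to 51.1 CPM in ApcMin, and Ret was the 1 tested marker that was lower (log2 fold change -0.12). Elavl4 and Elavl3, the first 2 on that list, were below the filter at 4 to 21 and 5 to 15 counts. The neuronal tubulin gene Tubb3, chosen after its values were seen, was at 0.903 to 1.84 CPM in Apc1322T and 2.91 to 2.96 CPM in ApcMin. All 6 smooth muscle markers, Acta2 and Myh11 first, were higher in ApcMin (summed 127 to 255 against 276 to 402 CPM), while 1 of 4 tested glial markers was higher (Sox10 was below the filter). The part of neurons or muscle in the Tac1 and Syp values was not tested.

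**Figure D2:**
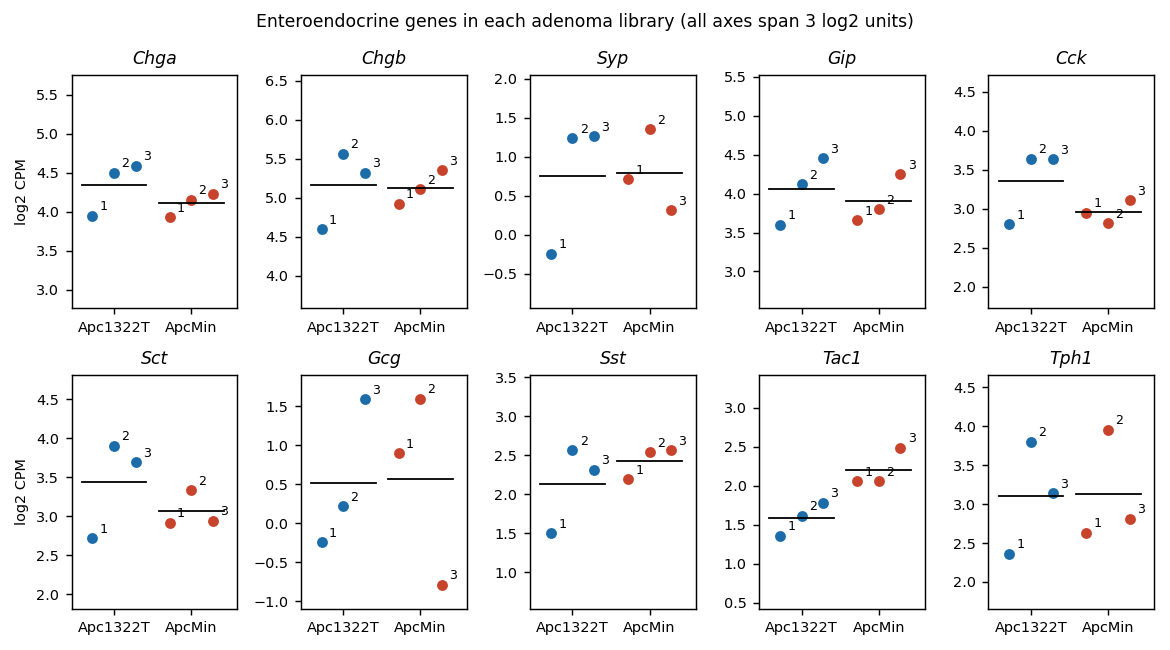
Log2 CPM of the 10 genes in each library, with Apc1322T in blue and ApcMin in red, the replicate number beside each point and the genotype mean as a line; every vertical axis spans 3 log2 units. Apc1322T replicate 1 is the lowest point for 8 of the 10 genes, and Tac1 is the only gene whose groups do not overlap.

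Most of the 10 genes were low in the same library. Apc1322T replicate 1 was the lowest library for 8 of 10 genes and the second lowest for the other 2, Chga and Gcg, and it was the lowest for 15.3% of all genes tested. The summed level of the 10 genes was 76.8 CPM there, against 141 and 133 CPM in the other Apc1322T libraries and 91.2, 114 and 115 CPM in ApcMin. Across all genes, that library correlated best with ApcMin replicate 3 (Spearman 0.982) rather than with a library of its own genotype (0.976 with each). It was not alone in this. ApcMin replicate 3 in turn correlated best with Apc1322T replicate 1, and ApcMin replicate 2 with Apc1322T replicate 3 (0.9823, against 0.9817 with ApcMin replicate 1). Some other groups of genes were also low in Apc1322T replicate 1 within its genotype. The summed epithelial markers were at 10701 CPM against 13266 and 13779 CPM. Serotonin synthesis and handling was at 377 against 684 and 680 CPM, and nutrient sensors at 308 against 802 and 1220 CPM. Maoa alone gave 68.9, 233 and 279 CPM of the serotonin sum. Among the nutrient sensors, Lpar5 was lowest there (13.0 against 20.6 and 19.9 CPM) and Ffar4 highest (10.8 against 8.36 and 8.84 CPM). Other groups had their highest sum there within Apc1322T. Enteroendocrine transcription factors were at 108 against 93.6 and 97.2 CPM, and granule and prohormone processing at 271 against 219 and 250 CPM. Foxa1 alone gave 91.0, 75.0 and 77.0 CPM of the factor sum. Single genes of these lists went different ways. Neurod1 (0.220 against 0.475 and 0.744 CPM), Insm1, Nkx2-2, Pax6, Myt1 and Cpe (15.5 against 22.9 and 24.8 CPM) were lowest there. Mnx1 (1.39 against 1.09 and 1.18 CPM) and Pam (89.7 against 75.6 and 81.5 CPM) were highest. Tuft cell markers (259 against 166 and 159 CPM), neuron markers (44.2 against 33.5 and 36.8 CPM) and hormone receptors (17.4 against 10.7 and 16.6 CPM) were too. Avil alone gave 223, 131 and 118 CPM of the tuft sum. The tuft marker Pou2f3 was instead lowest there (0.257 against 0.428 and 1.84 CPM). The part of these groups in the level of the 10 genes was not tested.

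Without Apc1322T replicate 1, 9 of the 10 genes were lower in ApcMin, Sst by only -0.00018, and the median log2 fold change of the 10 was -0.34. Over all genes, 54.3% were higher in that setting, with a median of 0.040. Chga (-0.43, edgeR adjusted p = 0.117), Cck (-0.67, adjusted p = 0.0820) and Sct (-0.73, adjusted p = 0.0988) then had no overlap between genotypes, all lower in ApcMin and none past the adjusted threshold. That rule held for 23.1% of all genes, and an unadjusted p under 0.05 with a lower level for 13.2%. Tac1 was higher at 0.53, and Gcg, Sst and Tph1 were the genes that changed sign. Without ApcMin replicate 2, where 52.6% of all genes were higher, 8 of the 10 genes were lower and their median was -0.33 over all 10. Without any other single library it lay between -0.0092 and 0.032. Scaling the libraries to the 5 epithelial markers moved 92.2% of all genes to a higher level in ApcMin, with a median of 0.47, and all 10 enteroendocrine genes with them, with a median of 0.43.

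Compared per length, the 6 most abundant of the 10 genes did not overlap with the other 4. In CPM per kilobase of exon, averaged over 6 libraries, Gip was at 23.4, Sct at 15.4 and Chgb at 13.2. Cck followed with libraries from 5.28 to 9.50, then Chga with a mean of 6.86 and Sst with a mean of 6.84. Neighbours in this order overlapped in their ranges. Tph1 (1.51), Gcg (1.12) and Tac1 (1.11) followed, below the lowest library of Sst at 3.82. Syp was last at 0.338, with its highest library (0.475) below the lowest of Tac1 (0.734) but above the lowest of Gcg (0.339). With the length of the longest transcript in place of all exons, only Gcg and Tac1 exchanged places.

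**Figure D3:**
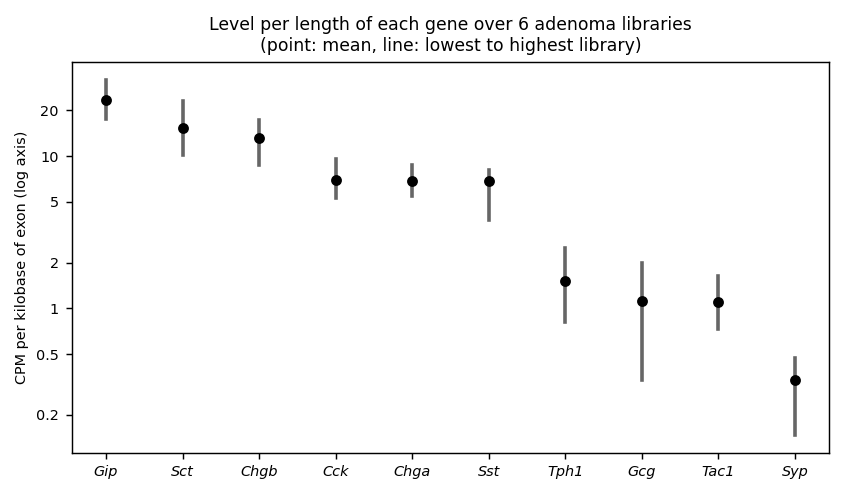
CPM per kilobase of exon on a log axis for the 10 genes, with the mean over 6 libraries as the point and the lowest to highest library as the line. The lines of the 6 genes from Gip to Sst lie above those of the other 4, and the Syp line lies below the Tac1 line but overlaps the Gcg line.

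The profile of each gene over the 6 libraries, after subtraction of its own mean, was compared by the root mean square difference in log2 CPM. The closest pairs were Chga with Gip (0.14), Chga with Cck (0.16) and Chga with Chgb (0.17), followed by Chgb with Sst (0.18). Gcg was the most distant gene, 0.60 from Syp and 0.80 to 0.99 from the other 8. Among the tested genes outside the 10, the closest to Chga were Vav2 (0.030), Urgcp (0.044), Parp4 (0.051), mt-Atp8 (0.061) and Dennd1b (0.064), all closer than any of the 9 enteroendocrine genes.

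Expressed per 100 counts of Chga in the same library, a measure chosen after the values were seen, the hormones ranged from almost constant to widely variable. Gip was the steadiest at 78.3, 76.6 and 91.2 in Apc1322T and 82.9, 78.3 and 101 in ApcMin, a 1.32-fold range over all libraries. Chgb (157 to 218) and Cck (39.2 to 54.9) spanned 1.39-fold and 1.40-fold. Tph1 spanned 2.64-fold and Gcg 6.15-fold, from 2.70 in ApcMin replicate 3 to 16.6 in ApcMin replicate 2.

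Relative to Chga, Tac1 and Sst were separate between genotypes. Tac1 was 16.2, 13.3 and 14.1 per 100 Chga counts in Apc1322T and 27.1, 23.1 and 29.6 in ApcMin, a 1.83-fold higher mean ratio. Sst was 17.9, 25.9 and 20.5 in Apc1322T and 29.7, 32.4 and 31.3 in ApcMin, 1.47-fold higher. For both genes all ApcMin ratios exceeded all Apc1322T ratios, and the two-sided exact permutation p was 0.10, the smallest that 3 against 3 libraries allow. Adjusted over the ratios of all these genes, that permutation p was 0.45 for each. The reference Chga was itself lower in ApcMin (log2 fold change -0.26), and Sst overlapped between genotypes when not divided by Chga (log2 fold change 0.25). By the same measure 10.6% of all genes were higher in ApcMin without overlap and 1.39% were lower. With Chgb as the reference, Tac1 and Sst did not overlap (log2 differences 0.66 and 0.34), and Cck was lower in ApcMin without overlap (-0.37). The exact permutation p was 0.10 for each, and the share of all genes without overlap was not counted for this reference.

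**Figure D4:**
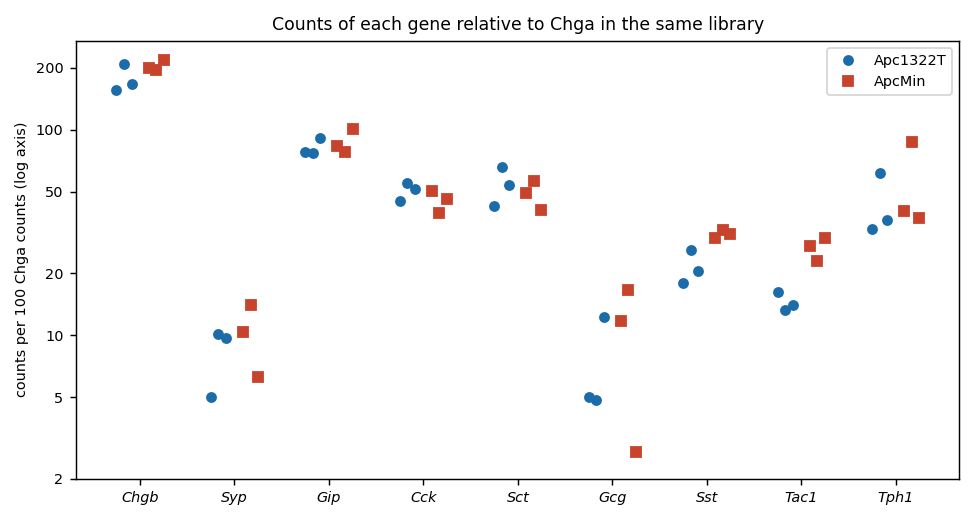
Counts of each gene per 100 counts of Chga in the same library, on a log axis, with Apc1322T as blue circles and ApcMin as red squares. The 6 Gip points lie between 76.6 and 101, the Gcg points spread from 2.70 to 16.6, and for Sst and Tac1 every ApcMin point is above every Apc1322T point.

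Gcg encodes proglucagon, from which L cells make the GLP-1 and GLP-2 peptides. It was at 0.770, 1.09 and 2.93 CPM in Apc1322T and 1.79, 2.95 and 0.506 CPM in ApcMin, or 21, 23 and 67 counts against 64, 75 and 16. The highest and the lowest library were both ApcMin, and the log2 fold change was 0.12 ± 0.74 (SE, edgeR adjusted p = 0.943). Neurotensin (Nts), which lower small intestinal endocrine cells also make, followed the same order of libraries except that Apc1322T replicate 3 and ApcMin replicate 1 exchanged places, at 1.80, 3.61 and 5.47 CPM in Apc1322T and 9.27, 12.3 and 0.759 CPM in ApcMin.

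Several markers of intestinal position moved with Gcg. The 5 genes set for the distal small intestine summed to 73.0, 170 and 210 CPM in Apc1322T and to 360, 366 and 65.7 CPM in ApcMin. The 3 libraries with the highest distal sum were the 3 with the highest Gcg, and ApcMin replicate 3 was lowest for both. The bile acid transport genes Slc10a2, Slc51a and Slc51b and the receptor gene Cubn each had Apc1322T replicate 1 and ApcMin replicate 3 as the 2 lowest libraries. The ileal bile acid binding gene Fabp6 was not like Gcg, since it was at 127 and 82.8 CPM in ApcMin replicates 1 and 2 and at 0.477 to 0.980 CPM in the other 4 libraries, Apc1322T replicate 3 included. Of the proximal markers, the first on the list, Gata4 and Onecut2, had log2 fold changes of -0.46 and -0.031. The other proximal markers went different ways, and their values were known when the ones named next were chosen. The iron transport gene Slc40a1 was lowest in Apc1322T replicate 3 and ApcMin replicate 2 (104 and 71.9 CPM, against 306 to 540 CPM elsewhere), the 2 libraries in which Gcg was highest, and Cybrd1 was lowest in the same 2. The lactase gene Lct instead was highest in Apc1322T replicate 3 (768 CPM) and lowest in ApcMin replicate 3 (6.10 CPM), and Fabp1 was at 1285 and 336 CPM in those libraries. Where along the intestine each adenoma lay is not given in the sources used here, and the part of position in the Gcg values was not tested. Gip showed no such spread, at 12.0 to 21.8 CPM.

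**Figure D5:**
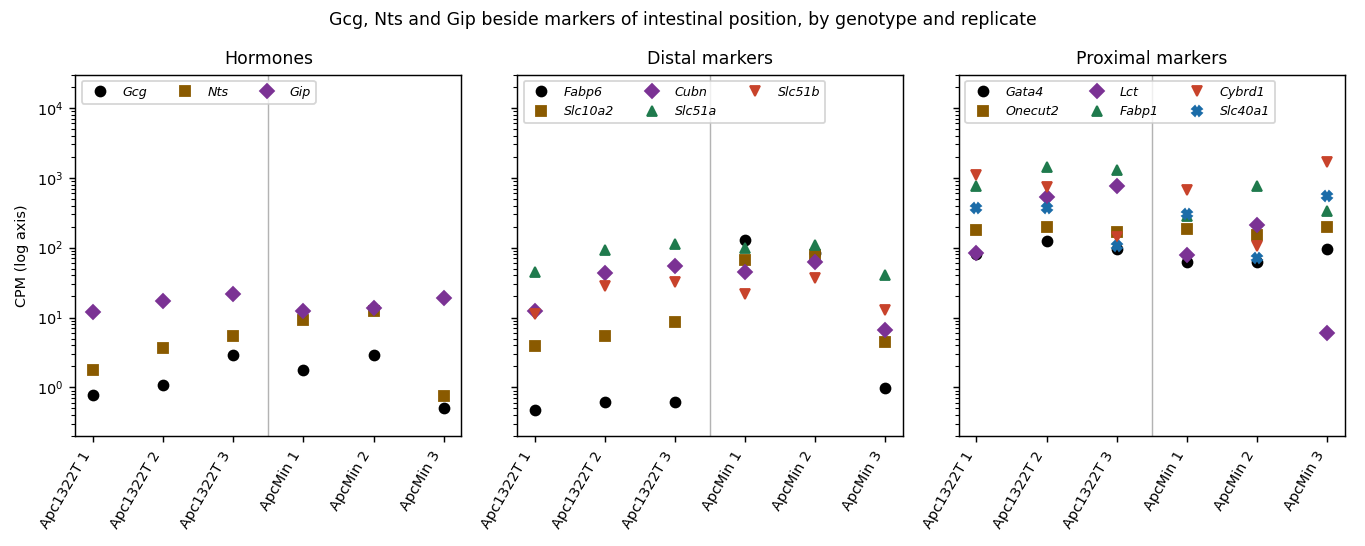
CPM on a log axis in each of the 6 libraries for the hormones Gcg, Nts and Gip (left), the 5 distal markers (middle) and the 6 proximal markers that passed the filter (right). Gcg and Nts are lowest in ApcMin replicate 3, where the distal markers are also low. Fabp6 is at 0.477 to 0.980 CPM in every library except ApcMin replicates 1 and 2. The proximal markers do not share 1 order, and Gip stays between 12.0 and 21.8 CPM.

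The other genes of the enteroendocrine programme were read from fixed lists, none of whose genes passed an adjusted p of 0.01 with edgeR or with DESeq2. Of 16 other gut hormones, 9 were tested and 6 were higher in ApcMin. Pyy, the L cell peptide YY, was higher without overlap at 105, 118 and 94 counts in Apc1322T and 329, 143 and 197 counts in ApcMin (log2 fold change 0.63 ± 0.26, SE, edgeR unadjusted p = 0.0487). Without ApcMin replicate 1 its log2 fold change was 0.39 and its unadjusted p from edgeR 0.165. Nts (1.04 ± 0.92), Penk (0.40 ± 0.24) and the ghrelin gene Ghrl (-0.45 ± 0.51) overlapped, and Insl5, a hormone of colonic L cells, was at 0 counts in all 6 libraries.

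Of 18 enteroendocrine transcription factors, 14 were tested and 13 were higher in ApcMin, with a median log2 fold change of 0.63, where 52.4% of all genes were higher. Of the 14, 5 (Neurod1, Neurog3, Nkx2-2, Pax6 and St18) reached the filter's minimum in all libraries of ApcMin but not of Apc1322T, so they entered the test through ApcMin. Of the 9 that reached it in all 6 libraries, 8 were higher. With no filter on low counts, 15 of 18 were higher with a median of 0.59, where 55.4% of all genes were higher. Leaving out ApcMin replicate 2 left 10 of 15 higher. Neurog3, which starts the endocrine lineage, had 6, 6 and 7 counts in Apc1322T and 48, 12 and 16 counts in ApcMin, without overlap. Its log2 fold change was 1.52 ± 0.56 (SE, edgeR adjusted p = 0.311) and was 0.85 without ApcMin replicate 1, the library with the acinar genes. Foxa2 (1.21 ± 0.36) and St18 (1.61 ± 0.67) did not overlap either, and Mnx1 (0.84 ± 0.36) did.

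All 25 genes for granule formation and prohormone processing were tested, and 16 were higher in ApcMin with a median log2 fold change of 0.13 (20 with upper-quartile scaling). An unadjusted p under 0.05 was reached by 7 of them, all higher and all without overlap, where 7.49% of all genes were higher by that p. Kcnk16 and Pcsk2 among them reached the filter's minimum in all libraries of ApcMin only. The 4 with the smallest p were Pcsk2, a prohormone convertase (1.14 ± 0.39), its chaperone Scg5 (0.99 ± 0.32), the potassium channel gene Kcnk16 (1.29 ± 0.47) and the synaptotagmin gene Syt13 (0.64 ± 0.24). Pcsk2 was low in every library, at 8, 6 and 11 counts in Apc1322T and 32, 20 and 21 counts in ApcMin.

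Around Tph1, 9 of 10 genes of serotonin synthesis and handling were tested, with 3 higher and 6 lower in ApcMin and a median log2 fold change of -0.35. With epithelial scaling their median was 0.11, again below that of all genes. The 4 with the smallest p were all lower and all overlapped between genotypes. They were Gch1, which makes the cofactor of tryptophan hydroxylase (-0.35 ± 0.15), Ddc, the decarboxylase of the next step (-0.85 ± 0.38), the serotonin transporter Slc6a4 (-0.92 ± 0.62) and Maob (-1.03 ± 0.74). Ddc and Slc6a4 are also expressed by enterocytes.

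Of 22 receptors for the hormones encoded by the 10 genes, 8 were tested and all 8 were higher in ApcMin, with a median log2 fold change of 0.71. Only 3 of the 8 reached the filter's minimum in all 6 libraries, and all 3 of these were higher. Another 3 (Gipr, Htr1b and Htr7) reached it in all libraries of ApcMin only, so they entered the test through ApcMin. With no filter on low counts, 19 of 21 receptors were higher with a median of 0.65, where 55.4% of all genes were higher. Where leaving out 1 library brought more receptors past the filter, as few as 9 of 12 were higher (without Apc1322T replicate 2). Beside Tacr1, these included the serotonin receptor genes Htr7 (1.23 ± 0.39) and Htr1b (0.77 ± 0.38) without overlap and the GLP-2 receptor gene Glp2r (1.16 ± 0.43) with overlap, while the gastrin receptor gene Cckbr was at 0 counts in all libraries. Of 16 nutrient sensors, 11 were tested and 7 were higher, with a median of 0.23. Lpar5, a receptor for lipid digestion products, was lower (-0.47 ± 0.19, SE, edgeR unadjusted p = 0.0475), Ffar2 (0.45 ± 0.20) was higher without overlap, and the bile acid receptor gene Gpbar1 (2.20 ± 1.07) overlapped. Gpbar1 had 71 counts in ApcMin replicate 1 and 1 to 12 elsewhere, and without that library it did not pass the filter.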

How the data were processed

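Per the labels and the methods of the study, RNA from excised, flash-frozen adenomas was made into stranded libraries and sequenced as single-end reads. The authors quantified the reads with Salmon against the GRCm38 transcriptome (GRCm38.p6 in the submitters' processing notes, which also name DESeq2) and deposited estimated counts per gene, not normalised. The table holds 6 libraries and no column of other samples. Each library was assigned to its genotype and replicate by its title.

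Estimated counts were rounded to whole numbers. GENCODE M21 gave symbols, exons and lengths for 34582 of 34866 Ensembl identifiers. Low counts were removed by filterByExpr with default settings (at least 10 counts, 15 in total) and libraries were scaled by TMM. The genotypes were compared in R 4.3.3 with edgeR 4.0.16 (quasi-likelihood, robust), and p-values over all tested genes were adjusted after Benjamini-Hochberg at a threshold of 0.01. Each standard error was the absolute log2 fold change over the square root of F. Log2 CPM used a prior count of 2, and library overlap was read on that scale. DESeq2 1.42.0, limma-voom of limma 3.58.1, other scalings and filters, a replicate block and the omission of each library were the alternatives. The scripts were tested on simulated data. Counting error alone sets a floor of 3 counts. The smallest chi-square per gene between any pair of libraries was 22.8, so none was a duplicate.

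The 10 genes and the lists were chosen with earlier results of these data known. The genes named are the 10, up to 4 genes of each list with the smallest p, the 5 genes closest to Chga, and the first 2 genes of each cell type list with any gene at 0 throughout. Some genes that this rule names are not reported here. Tuft cell markers (4 of 6 tested, all 4 higher in ApcMin, Dclk1 by 0.57 and Pou2f3 by 1.52 on the log2 scale) were also read. Promoters are from RefSeq. No protein sequence was used here.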

Additional observations from a re-analysis of the deposited data

How the results depend on the processing

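None of the 10 genes passed an adjusted p of 0.01 under any alternative, and none passed 0.05. The median log2 fold change of the 10 genes, -0.058, lay near 0 and turned positive with upper-quartile scaling (0.0062), library totals alone (0.12, where the median of all genes was 0.17), limma-voom (0.0033) and scaling to the 5 epithelial markers (0.43); leaving out 1 library gave -0.34 (without Apc1322T replicate 1; -0.33 without ApcMin replicate 2) to 0.032. The replicate numbers did not pair the libraries (correlations of deviations -0.014, 0.16 and -0.29); the replicate block gave a median of 0.0020, turned Syp to 0.039, called 0 of all genes and left 2113 instead of 2495 genes at an unadjusted p under 0.05. Syp was also positive with upper-quartile scaling (0.024), library totals (0.14), limma-voom (0.067) and epithelial scaling (0.44), and Chgb with library totals (0.098) and epithelial scaling (0.42). Epithelial scaling, chosen after the data were seen, turned Chga (0.22), Cck (0.057), Sct (0.037) and Gip (0.33) positive. It left 2 genes, higher in ApcMin, without overlap, where 92.2% of all genes were higher. Leaving out Apc1322T replicate 1 and ApcMin replicate 1 together, also chosen afterwards, turned Gcg (-0.23) and Tph1 (-0.0085) negative and left 3 genes lower in ApcMin without overlap. The share of all genes without overlap was not counted in these settings, so the counts cannot be read as particular to the 10 genes. Leaving out each library in turn gave -0.31 to 0.14 for Chgb, -0.40 to 0.19 for Syp, -0.47 to 0.90 for Gcg, -0.00018 to 0.49 for Sst, -0.37 to 0.042 for Gip, -0.49 to 0.46 for Tph1 and 0.47 to 0.74 for Tac1, and 0 to 3 genes lower without overlap, 3 without Apc1322T replicate 1. Without Apc1322T replicate 1, 23.1% of all genes were lower without overlap. The ratio of Gip turned from 0.087 relative to Chga to -0.12 relative to Chgb. The cause of these changes was not tested. With 3 libraries per genotype, standard errors of 0.19 to 0.74 set the size of difference that could be seen.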
